A study of Mus musculus with 30 samples.

Results

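The comparison described here set 5 RNA sequencing libraries labelled Cacnb3-/- against 5 WT libraries, all from mouse bone marrow-derived dendritic cells (BMDCs) and all carrying 0p5h at the end of the library name. These were 10 of the 30 libraries in the gene count table. A library belonged to the set by the end of its name and to a genotype by the genotype field. Bone marrow of mice aged 6 to 12 weeks had been cultured with GM-CSF at 20 ng per ml, and the labels give 6 days of culture before stimulation. Across the series, cells received 500 µM ATP for 30 min or no ATP. For the libraries named 0p5h the name points to the early ATP harvest, whereas the treatment field of the same libraries reads vehicle, so the readings of the treatment cannot be told apart from the labels. Both genotypes share this conflict, and a contrast of genotypes within the set holds under either reading. The study's methods give C57BL/6J for WT mice and C57BL/6N for Cacnb3-/- mice, so that genotype and substrain cannot be told apart. The mice were of both sexes, and Xist, which is transcribed from the inactive X chromosome of females, was abundant in 2 of the 5 libraries of each genotype. The labels do not say whether a culture number marks 1 animal, so the p-values below measure the spread between these samples.

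Dendritic cells take up antigen in tissues, mature, and carry it along a Ccr7-dependent route to lymph nodes, where they present it to T cells. Cacnb3 encodes the β3 regulatory subunit of voltage-gated calcium channels, and it is also known to bind the IP3 receptor, which releases calcium from the endoplasmic reticulum. Extracellular ATP is a danger signal that acts on such cells through purinergic receptors and calcium.

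Cacnb3 (ENSMUSG00000003352, chromosome 15, 98632220 to 98644530 in GRCm38), the targeted gene, was read in every library. In WT it stood at 1199.6, 1346, 1004, 1023 and 1408 CPM (read counts scaled to a fixed library total with TMM factors) in cultures p974s846, p974s850, p974s855, p974s856 and p974s864. In the libraries labelled Cacnb3-/- it stood at 743, 974.05, 973.5, 1306 and 731 CPM in cultures p974s843, p974s851, p974s852, p974s853 and p974s865, and all later per-library values follow these culture orders. The ranges overlapped, with culture p974s853 above 3 of the WT libraries. The log2 fold change was -0.34 (SE 0.18, edgeR Benjamini-Hochberg adjusted p = 0.367), and an exact permutation test of log2(CPM + 1) gave a difference of -0.36 (two-sided p = 0.0873, n = 5 against 5, Benjamini-Hochberg adjusted over Cacnb3 and Nnt 0.175). A count per whole gene cannot show whether single exons are missing, so these counts do not check the deletion. Nnt, an antioxidant enzyme gene of which C57BL/6J carries a truncated allele, stood at 7.78 ± 1.58 CPM in WT and 8.07 ± 1.64 CPM in the libraries labelled Cacnb3-/- (SD, n = 5 each), a difference of 0.04 on the log2(CPM + 1) scale (exact permutation p = 0.817).

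The cells carried the transcripts of antigen-presenting dendritic cells in both genotypes. H2-Aa, an MHC class II chain, stood at 8635 ± 1412 CPM in WT and 7934 ± 1181 CPM in the libraries labelled Cacnb3-/-. Itgax, which encodes CD11c, stood at 231 ± 40.4 and 223 ± 139 CPM, and Flt3, the receptor of a dendritic cell growth factor, at 63.7 ± 11.2 and 67.0 ± 39.9 CPM. Csf1r, the M-CSF receptor of monocytes and macrophages, stood at 547 ± 194 and 548 ± 437 CPM, so transcripts of that lineage were present as well. Of 16 T and NK cell markers, 13 were too low to be tested, and the list summed to between 6.01 and 21.2 CPM over all libraries. In bulk cultures such as these, fewer cells of a type and less RNA per cell cannot be told apart.

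Totals ran from 13807704 to 32164225 counts per library. Mitochondrial genes took 5.86 ± 3.06% of counts in the libraries labelled Cacnb3-/- and 2.28 ± 1.27% in WT (exact permutation p = 0.0317, Benjamini-Hochberg adjusted over 6 library measures 0.0952). The 10 highest genes took 12.02 ± 1.55% and 10.7 ± 0.378% (exact permutation p = 0.0238, adjusted 0.0952). Total counts, genes detected and the slopes with GC content and exon length had exact permutation p between 0.198 and 0.413. On the first principal component, which held 39.4% of the variance, WT cultures p974s846, p974s855 and p974s856 lay at one end, whereas WT p974s864 and p974s850 lay within the range of the libraries labelled Cacnb3-/-, of which p974s865 was nearest to that end.

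Across all genes, none passed the threshold with edgeR. Of 12806 genes tested with edgeR's quasi-likelihood test, 0 had a Benjamini-Hochberg adjusted p under 0.05 with a fold change of at least 2, and the smallest adjusted p was 0.251. At an unadjusted p under 0.05, 1071 genes were higher in the libraries labelled Cacnb3-/- (8.36% of those tested) and 1032 were lower (8.06%), 16.4% together. Below, a gene that met this unadjusted bound is said to lean, which is a description and not a call. Of the leaning genes, 135 were at least 2-fold higher and 169 at least 2-fold lower. The 5 values of each genotype did not overlap for 130 genes in the higher direction (1.02%) and 132 in the lower direction (1.03%). DESeq2, the tool that the paper used, called 83 of 14116 genes (0.588%), 37 higher and 46 lower, and 131 at the adjusted p alone (0.928%). The paper, with the same thresholds, reported none that differed by genotype, whatever the time point. The DESeq2 calls here came from these 10 libraries alone. The paper names a later genome build than that of the deposited counts and does not say which libraries entered its fit. Limma-voom called 0 of the 12806 (1034 higher and 1011 lower at unadjusted p under 0.05), and with sample quality weights it also called 0 (1540 and 1413). With the sequencing lane as a covariate edgeR called 0, with 1060 and 1028 genes leaning.

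**Figure D1:**
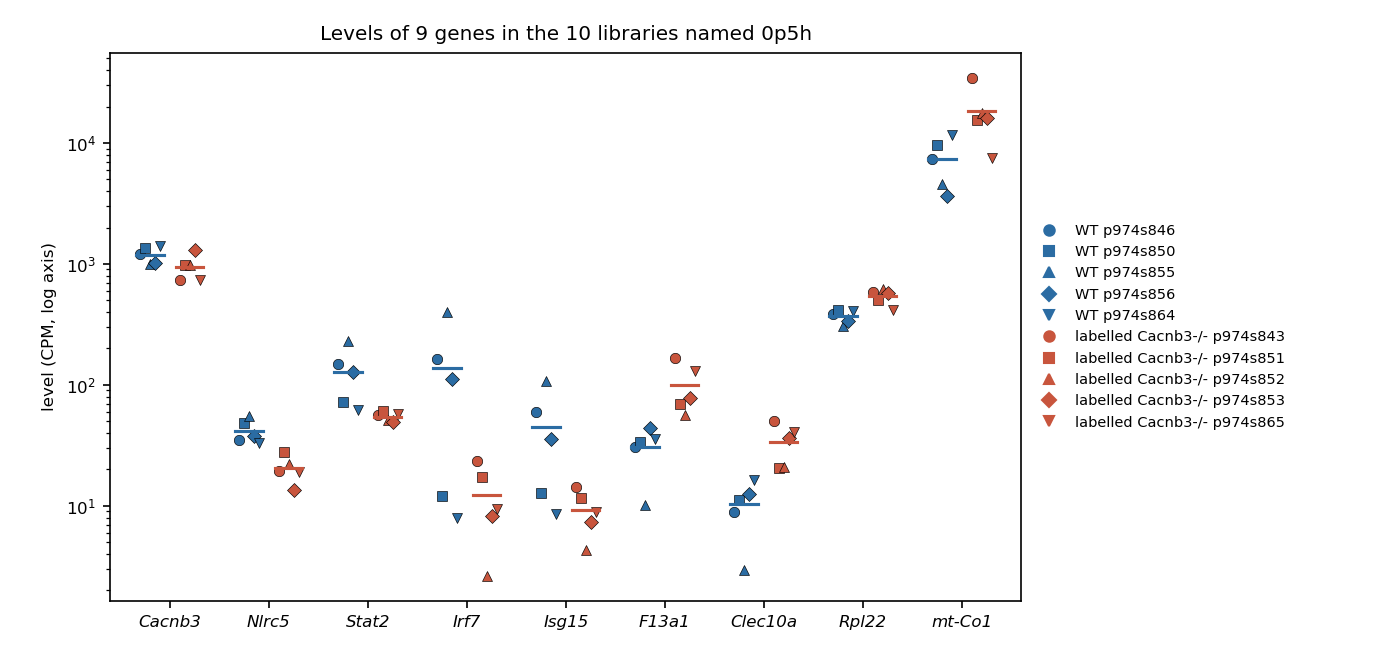
Level of 9 genes in CPM on a log axis in the 10 libraries, with 1 symbol per culture and a bar at the mean of each genotype (blue WT, red labelled Cacnb3-/-). Nlrc5, Stat2, F13a1, Clec10a and Rpl22 do not overlap between genotypes, whereas Cacnb3 overlaps and Irf7 and Isg15 are high in 3 of the 5 WT libraries (p974s846, p974s855 and p974s856) and low in the others.

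Genes are named here where they were among the 10 higher or 10 lower genes of lowest p with a mean of at least 5 CPM. The lowest p of all belonged to Nlrc5 (ENSMUSG00000074151, chromosome 8, 94472763 to 94527272), the transactivator of MHC class I genes. Nlrc5 stood at 34.8, 48.0, 55.4, 38.1 and 33.2 CPM in WT and at 19.3, 27.9, 21.97, 13.6 and 19.2 CPM in the libraries labelled Cacnb3-/-. Every WT value lay above every value of the other genotype. The log2 fold change was -1.04 (SE 0.20, edgeR Benjamini-Hochberg adjusted p = 0.251), which moved between -1.18 and -0.92 with each library left out.

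By this rule the other leading genes lower in the libraries labelled Cacnb3-/- were Ctif (-1.29 on the log2 scale), a cap-binding translation initiation factor, Dscaml1 (-1.19), a neuronal adhesion molecule, Traf3 (-0.68), an adaptor of TNF receptor and interferon signalling, Snrk (-0.66), a kinase, Jazf1 (-0.63), a transcriptional cofactor, Tmco4 (-0.60), Cxxc1 (-0.60), a CpG-binding protein of a histone methyltransferase complex, and Uba7 (-0.58), the activating enzyme for the ubiquitin-like protein ISG15. None of these 8 overlapped between genotypes. Over all genes tested, 1.03% did not overlap in the lower direction. These genes were picked by low p in the same libraries, so their lack of overlap is no separate evidence. Uba7 stood at 144, 122, 139.6, 136 and 133 CPM in WT against 69.1, 84.5, 92.9, 116 and 87.8 CPM. WT p974s850 and p974s864 were the lowest WT libraries for Uba7, and both lay above every library labelled Cacnb3-/-. Their edgeR Benjamini-Hochberg adjusted p was 0.251 each.

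The leading gene in the higher direction by size was Clec10a, a galactose-binding lectin of conventional dendritic cells and macrophages. Clec10a stood at 8.93, 11.1, 2.94, 12.6 and 16.3 CPM in WT and at 49.98, 20.7, 21.1, 36.5 and 40.7 CPM in the libraries labelled Cacnb3-/-, a log2 fold change of 1.71 (SE 0.39, edgeR Benjamini-Hochberg adjusted p = 0.251). F13a1, the A chain of coagulation factor XIII made by monocytes and macrophages, stood at 30.5, 33.6, 10.2, 44.2 and 36.03 CPM against 166, 69.1, 56.3, 78.4 and 130.2 CPM, a log2 fold change of 1.69 (SE 0.38). Neither gene overlapped between genotypes, and WT p974s855 was the lowest library for both.

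The remaining leaders in this direction were Pf4 (1.46), a platelet and myeloid chemokine, Trf (1.12), transferrin, Padi2 (1.02), a peptidylarginine deiminase, Ss18l2 (0.77), Cnih1 (0.62), an export receptor of the endoplasmic reticulum, Ssh2 (0.59), a phosphatase that activates cofilin, Atg7 (0.47), an enzyme of autophagosome formation, and Prkag2 (0.45), a regulatory subunit of AMP-activated kinase. Their values did not overlap between genotypes either, as for 1.02% of all genes tested in the higher direction. Atg7 stood at 71.0, 68.8, 61.0, 68.8 and 73.7 CPM in WT against 110.3, 83.1, 98.4, 93.9 and 89.9 CPM. WT p974s864 and culture p974s851 were the nearest libraries of the genotypes for Atg7, and the WT values lay close together. Of these 19 leading genes, DESeq2 called 8 at 2-fold (Nlrc5, Ctif, Dscaml1, Clec10a, F13a1, Pf4, Trf and Padi2), and edgeR called 0. Over all genes DESeq2 called 0.588%. All 19 were picked by low edgeR p in these libraries, so neither their DESeq2 calls nor their lack of overlap is separate evidence.

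The type I interferon-stimulated genes had the lowest median fold change of the 60 lists examined. This family is switched on by type I interferon through a complex that contains STAT2 and IRF9. Of 33 listed genes in the table, 31 were tested, of which 25 leaned lower and 0 leaned higher, beside 8.06% of all genes leaning lower. Their median log2 fold change was -1.34, beside 0.02 for all genes tested, and stayed between -1.56 and -1.04 with each library left out. Without WT p974s855, 20 of the 31 leaned lower. Yet the ranges of the genotypes did not overlap for 1 member only, Stat2.

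Stat2 (ENSMUSG00000040033, chromosome 10, 128270576 to 128292849), a subunit of the interferon-activated transcription factor, stood at 148, 71.9, 231, 127 and 61.9 CPM in WT. It stood at 56.3, 60.3, 51.1, 48.9 and 57.2 CPM in the libraries labelled Cacnb3-/-, and the log2 fold change was -1.22 (SE 0.30, edgeR Benjamini-Hochberg adjusted p = 0.251). WT p974s850 and p974s864 lay close to the other genotype, whereas WT p974s846, p974s855 and p974s856 lay far above it.

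Isg15, the ubiquitin-like modifier, stood at 60.2, 12.9, 108, 35.5 and 8.53 CPM in WT and at 14.3, 11.6, 4.33, 7.36 and 8.91 CPM in the libraries labelled Cacnb3-/- (log2 fold change -2.27, SE 0.61). Irf7, the factor that amplifies interferon production and a gene singled out after its values were seen, had the largest negative fold change of all genes tested, -3.50 (SE 0.95). It stood at 163, 12.2, 398, 112 and 7.86 CPM in WT and at 23.3, 17.3, 2.65, 8.29 and 9.38 CPM. For both genes the same 3 WT libraries were high, and WT p974s850 and p974s864 lay within the range of the libraries labelled Cacnb3-/-. Oasl1, an inhibitor of Irf7 translation, had a log2 fold change of -2.88 (SE 0.72) and Parp14, an ADP-ribosyltransferase, of -0.69 (SE 0.18). The most abundant member, Bst2, which tethers virus particles to the cell, stood at 513 ± 80.3 CPM in WT and 558 ± 198 CPM, a log2 fold change of 0.12.

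Taken over the list, the median deviation from the mean of the 10 libraries was 1.27, 1.56 and 1.13 on the log2 scale in WT p974s846, p974s855 and p974s856. It was -0.33 and -0.49 in WT p974s850 and p974s864 and lay between -1.21 and -0.04 in the libraries labelled Cacnb3-/-. The list was thus higher in 3 of the 5 WT cultures than in any library labelled Cacnb3-/-, and not in the other 2. Those 3 cultures were also the highest in the set named ctrl (1.15, 1.51 and 0.95), where WT p974s850 stood at 0.39, also above every library labelled Cacnb3-/- (at most -0.31). In the set named 24h they stood at 1.21, 0.64 and 0.52, and culture p974s843, labelled Cacnb3-/-, was also at 0.52. In the set named 0p5h the sequencing lane, which the column names give, moved with this: WT p974s850 and p974s864 were both on lane 1. In the set named ctrl, WT p974s846 was also on lane 1 and stood at 1.15. There WT p974s850 and p974s864, on the same lane, stood at 0.39 and -0.66. Within lanes of the set named 0p5h, the libraries labelled Cacnb3-/- minus WT came to 0.24 on lane 1, -2.15 on lane 2 and -2.05 on lane 3. Lane 1 held 1 library labelled Cacnb3-/- and 2 WT libraries, lane 2 held 2 and 2, and lane 3 held 2 and 1. The 1 WT library of lane 3 was p974s855, so every lane 3 difference given here and below rests on it for WT. With the lane as a covariate the list's median fold change was -1.31 and 27 of 31 leaned lower. In the sets named ctrl and 24h, which hold other libraries of the same cultures, the medians of the list were -1.47 and -0.59.

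**Figure D2:**
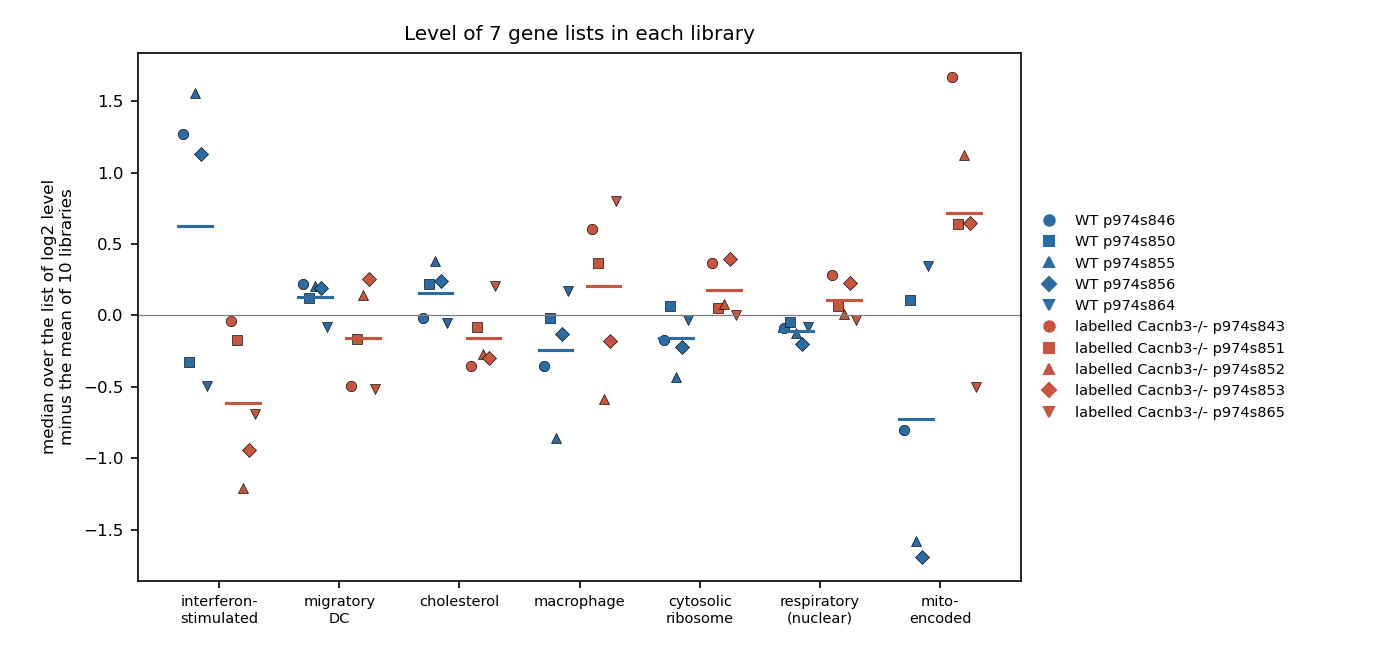
Level of 7 gene lists in each library, given as the median over the list of the log2 level minus the gene's mean over the 10 libraries, with 1 symbol per culture and a bar at the mean of each genotype. The interferon-stimulated genes are high in WT p974s846, p974s855 and p974s856 (1.27, 1.56 and 1.13) and not in WT p974s850 and p974s864 (-0.33 and -0.49). For the mitochondrially encoded genes these WT subsets lie the other way round.

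Interferon-stimulated genes are bound by their activating complex at a sequence of repeated GAAA units. Promoter sequences (RefSeq, GRCm38.p6, 250 bases before to 50 after the gene start) were found for 21 of the 31 tested members, and 11 of these held GAAANNGAAA on either strand (52.4%), beside 3.99% of all 27025 promoters and 3.86% of the 9673 promoters of genes tested. Of the genes that leaned lower, 53 of 794 promoters held it (6.68%), 43 of 775 with the list left out (5.55%), and of those that leaned higher 32 of 774 (4.13%). A match of these letters is a description of the window and not a shown binding site. Stretches of 60 bases around a match are shown for 3 members that leaned lower, to let the repeated unit be seen, on the gene's strand, with that match in capitals. The Isg15 stretch holds 3 matches that share units, and only the last is in capitals. The windows lie at chr10:128270251-128270310 for Stat2, chr4:156200850-156200909 for Isg15 and chr5:120777700-120777759 for Oas3 (log2 fold change -1.83, SE 0.56), an enzyme that activates RNase L.
Stat2: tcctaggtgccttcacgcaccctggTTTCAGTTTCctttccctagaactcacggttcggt
Isg15: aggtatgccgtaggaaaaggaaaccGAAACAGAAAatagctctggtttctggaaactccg
Oas3: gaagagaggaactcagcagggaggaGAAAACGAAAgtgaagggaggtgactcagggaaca

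Genes of dendritic cell maturation leaned lower, with smaller folds. Of 21 markers of mature migratory dendritic cells, 6 leaned lower and 0 higher, beside 8.06% of all genes leaning lower. The list's median was -0.34 (-0.50 to -0.26 with each library left out). The list holds Cacnb3, the targeted gene, whose own fold change of -0.34 is that median. The genes that leaned included Laptm4b (-0.92), a lysosomal membrane protein, and Il4i1 (-0.78), a secreted amino acid oxidase. The chemokines Ccl17 (-1.61) and Ccl22 (-0.75), which attract Ccr4-bearing T cells, were also among them. Ccr7, the chemokine receptor that guides migration to lymph nodes, stood at 4999.9, 4443, 5384, 5786 and 3781 CPM in WT and at 2379, 3857, 3249.8, 4095 and 3616 CPM (log2 fold change -0.50, SE 0.19, edgeR Benjamini-Hochberg adjusted p = 0.262). Ccl22 stood at 7164, 8035, 13567, 7287 and 5166 CPM against 3768, 5687, 5218, 5407 and 4416 CPM. Both genes overlapped between genotypes through WT p974s864, the lowest WT library. Within lanes 1, 2 and 3 the list differed by -0.19, -0.39 and -0.33. Without culture p974s853, 11 of the 21 leaned lower, and without WT p974s856, 4.

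Signalling lists leaned the same way. Over all genes tested, 8.06% leaned lower and 8.36% higher. Of 19 NF-kB subunits and feedback genes, 5 leaned lower and 0 higher (median -0.26), led by Nfkb1 (-0.73), Rel (-0.72) and Bcl3 (-0.72). Of 22 JAK-STAT and GM-CSF signalling genes, 6 leaned lower and 0 higher (median -0.28), among them Tyk2 (-0.43, -0.33 with the GC trend described below removed), a kinase of the type I interferon receptor, Stat5a (-0.82), which acts downstream of GM-CSF, and Socs3 (-1.22), a feedback inhibitor. Of 20 MHC class I genes, 4 leaned lower (median -0.26), namely Nlrc5, H2-T24 (-1.38), Tapbpl (-0.51) and H2-T22 (-0.52), the last at 145 ± 56.3 and 102 ± 10.5 CPM. Of 17 MHC class II genes, 3 leaned lower and 1 higher (median -0.20). Ciita, the class II transactivator, leaned lower (-0.95), and Lgmn, a lysosomal protease, leaned higher (0.34). In lane 1 the class I and class II lists differed by 0.09 and 0.12, against -0.53 and -0.31 in lane 2 and -0.40 and -0.45 in lane 3. These counts rested on single libraries: without culture p974s843 or WT p974s856, 3 and 2 of the NF-kB genes, 2 and 3 of the class I genes and 0 and 0 of the class II genes leaned lower, whereas without WT p974s864 the counts were 9, 8 and 7.

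Of 17 dendritic cell cytokines, 3 leaned lower and 1 higher, beside 8.06% and 8.36% of all genes. The list's median was -0.46 (-0.56 to -0.19 with each library left out). Il12b, the p40 chain of IL-12 and IL-23, stood at 466, 431, 1108, 454 and 275 CPM in WT and at 61.1, 255, 277, 157 and 228 CPM in the libraries labelled Cacnb3-/- (log2 fold change -1.48, SE 0.42). The ranges met between WT p974s864 and culture p974s852, and WT p974s855 was far above the rest. Lif (-0.72) and Il6 (-1.09) leaned lower and Il18 (0.45) leaned higher. Within lanes the list differed by -0.02, -0.44 and -0.94.

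Genes of cholesterol synthesis and uptake leaned lower in 8 of 26 members and higher in 0, beside 8.06% of all genes leaning lower. The list's median was -0.35 (-0.41 to -0.24). Fdps, the enzyme that makes farnesyl pyrophosphate, stood at 7.52, 14.4, 17.7, 12.6 and 9.43 CPM in WT and at 4.05, 6.61, 6.02, 5.40 and 9.23 CPM (log2 fold change -0.97, SE 0.26). The highest library labelled Cacnb3-/- lay above the lowest WT library, so the genotypes overlapped. The sterol dehydrogenase Nsdhl had a log2 fold change of -0.47 and Srebf2, the transcription factor of the pathway, of -0.54. The count was unstable: without WT p974s855, 2 members leaned lower, without p974s843, p974s852, WT p974s850 or WT p974s856 between 3 and 5, and without culture p974s865, 13. Within lanes 1, 2 and 3 the list differed by -0.16, -0.14 and -0.71.

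In the higher direction, genes of protein synthesis and oxidative phosphorylation leaned together. Of 79 tested cytosolic ribosomal protein genes, 32 leaned higher and 0 lower, beside 8.36% of all genes leaning higher, with a median of 0.32 (0.25 to 0.37 with each library left out). Rpl22, of the large subunit, stood at 385, 412, 309, 338 and 412 CPM against 585, 506, 618, 570.3 and 417 CPM (log2 fold change 0.54, SE 0.14, edgeR Benjamini-Hochberg adjusted p = 0.251). The genotypes did not overlap for Rpl22, although culture p974s865 lay only just above WT p974s850 and p974s864. Rps3a1 (0.81) and Rpl27a (0.84) followed, and the most abundant member, Rpl4, was higher by 0.26 without leaning. Ribosomal protein genes have many processed pseudogenes, and reads shared with these cannot be assigned, so single values are uncertain. Within lanes the list differed by 0.03, 0.23 and 0.81. Without culture p974s853, WT p974s855, WT p974s856 or culture p974s843, between 19 and 22 members leaned higher.

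Of 82 nuclear-encoded respiratory chain genes tested, 30 leaned higher and 1 lower, beside 8.36% of all genes leaning higher. The list's median was 0.23 (0.19 to 0.27). Ndufb5, a subunit of complex I, stood at 47.6, 57.9, 45.9, 49.2 and 60.9 CPM in WT and at 81.9, 73.6, 82.7, 65.9 and 62.7 CPM (0.49, SE 0.12), with no overlap. Atp5mj of the ATP synthase (0.70), the complex I subunits Ndufa5 (0.86) and Ndufa6 (0.45), and Cox4i1 of cytochrome oxidase (0.39), the most abundant member, leaned the same way. Of 75 mitochondrial ribosomal protein genes, 20 leaned higher and 1 lower (median 0.15), led by Mrps15 (0.51) and Mrpl48 (0.45). Without culture p974s843, culture p974s853 or WT p974s856, between 15 and 17 respiratory chain members and between 11 and 13 mitochondrial ribosome members leaned higher. Within lanes 1, 2 and 3 the respiratory chain list differed by 0.13, 0.13 and 0.38 and the mitochondrial ribosome list by 0.09, 0.05 and 0.23.

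The genes encoded by mitochondrial DNA showed the largest positive median. Of 13, 7 could be tested, 5 others had at most 1 read in every library, and mt-Nd3 had 3 to 33 reads. By comparison mt-Co1 had 72252 to 555915 reads. Whether reads of the low genes were left unassigned was not tested, so their counts do not show absence. Reads left unassigned would also be missing from the mitochondrial share of counts. All 7 leaned higher, beside 8.36% of all genes leaning higher, with a median of 1.37 (1.12 to 1.67). Their log2 fold changes lay close together (1.21 to 1.52), and the 7 should not be read as separate results. The cytochrome oxidase gene mt-Co1 stood at 7365, 9676, 4578, 3678 and 11637 CPM in WT and at 34645, 15341, 17762, 16197 and 7523 CPM in the libraries labelled Cacnb3-/- (log2 fold change 1.31, SE 0.41, edgeR Benjamini-Hochberg adjusted p = 0.251). The genotypes overlapped, since culture p974s865 lay below WT p974s850 and p974s864, and culture p974s843 was the highest. Without culture p974s843, 4 of the 7 leaned. Across the list, WT p974s850 and p974s864 stood at 0.11 and 0.35 and WT p974s846, p974s855 and p974s856 at -0.81, -1.58 and -1.69. These are the same 2 WT subsets as for the interferon-stimulated genes, in the opposite order. Within lanes the difference was 0.42, 1.56 and 2.74. The mitochondrial share of counts is also read as a sign of RNA or cell quality, and its part in the other results was not tested.

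**Figure D3:**
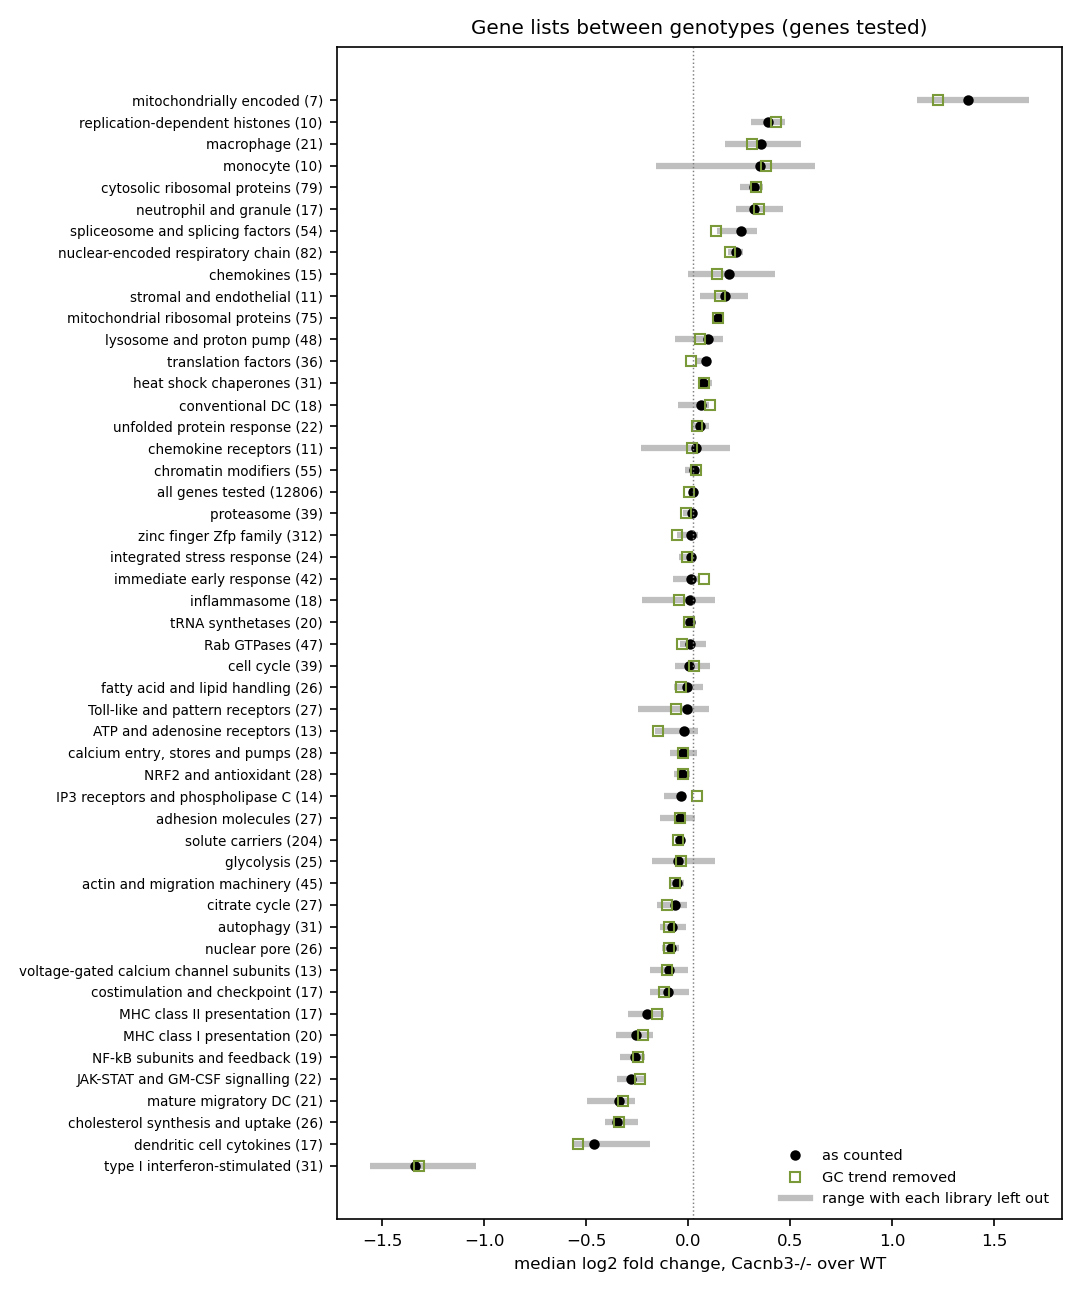
Median log2 fold change of the libraries labelled Cacnb3-/- over WT for each gene list with at least 10 genes tested and for the mitochondrially encoded genes, as counted (black) and with each library's GC trend removed (green), with a grey bar from the lowest to the highest median when each library is left out. The interferon-stimulated list lies lowest (-1.34), the mitochondrially encoded list highest (1.37), and the lists close to the dotted line lie near the median of all genes (0.02).

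Some markers of neighbouring myeloid types leaned as well, beside 8.36% of all genes leaning higher and 8.06% lower. Of 21 tested macrophage markers, 4 leaned higher and 0 lower (median 0.36, 0.18 to 0.55 with each library left out). They were Maf (1.05), a transcription factor, Cd163 (1.67), a haemoglobin scavenger receptor, Trem2 (0.74), a lipid-sensing receptor, and Apoe (1.34), an apolipoprotein. Apoe stood at 355, 445, 39.0, 298 and 640.4 CPM in WT and at 1504, 965, 347, 889 and 798 CPM, with culture p974s852 inside the WT range and WT p974s855 far below all others. The most abundant member, Lyz2, was higher by 0.36 with an SE of 0.55. Summed, the macrophage list lay between 4455 and 11076 CPM in WT and between 3922 and 18007 CPM in the libraries labelled Cacnb3-/-, so its ranges overlapped. Within lanes the list differed by 0.30, 0.35 and 1.08, and without single libraries between 2 (p974s843, WT p974s846, p974s851 or WT p974s856) and 7 (WT p974s850) of its members leaned higher.

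Of 17 neutrophil and granule genes, 3 leaned higher and 0 lower (median 0.32), beside 8.36% of all genes leaning higher. The 3 included the stefin Stfa2 (1.21) and Retnlg (1.48). The list summed to 254 to 549.8 CPM in WT against 414 to 636 CPM. Of 10 monocyte markers, 3 leaned higher, among them F13a1 and Ccr2 (1.20), and Plac8 leaned lower (-2.21). The monocyte median of 0.35 turned to -0.16 at its lowest with 1 library left out. The summed megakaryocyte and platelet list, led by Pf4, lay between 40.2 and 94.8 CPM in WT against 88.8 to 261 CPM, with an overlap. Conventional dendritic cell markers had a median of 0.06, with Clec10a, Kmo (0.86) and Mgl2 (1.33) higher among 18. The part of cell composition in the interferon, ribosomal and mitochondrial differences was not tested.

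Genes closest to the calcium and ATP question leaned in small numbers, beside 16.4% of all genes leaning in either direction. Of 13 voltage-gated calcium channel subunits tested, Cacng8 (-0.97) and Cacna1b (-0.33) leaned lower and Cacnb2 (0.88), another β subunit, leaned higher. None of the 13 ATP and adenosine receptors leaned, with a median of -0.02. Of 14 genes of IP3 receptors and phospholipase C, Itpr1 leaned higher by 0.31. Of 28 genes of calcium entry, stores and pumps, 2 leaned higher and 4 lower, among them Atp2a3 (-0.86), a calcium pump of the endoplasmic reticulum, Orai2 (-0.46), a store-operated channel, and Ppp3r1 (0.31), the calcineurin regulatory subunit. Of 45 genes of actin and migration machinery, 4 leaned lower and 0 higher, namely Actg1 (-0.56), Myo1g (-0.58), Myh9 (-0.43) and Myl12a (-0.35). Of 42 immediate early genes, 2 leaned each way, with a median of 0.01. Of 108 genes tested within 5 Mb of Cacnb3, 9 leaned higher and 8 lower (median 0.05).

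In further lists few genes leaned. In most of them the larger share was still above that of all genes in its direction (8.36% higher, 8.06% lower). Of 36 translation factors, 7 leaned higher and 2 lower (median 0.09, and 0.01 with the GC trend described below removed), of 31 heat shock chaperones 5 and 0 (0.07), of 48 lysosomal and proton pump genes 5 and 1 (0.10), and of 10 replication-dependent histone genes 3 and 0 (0.39). Ctsl, a lysosomal cysteine protease, was the first of the lysosomal list. Of 26 nuclear pore genes, 4 leaned lower and 0 higher (-0.09), of 31 autophagy genes 5 and 1 (-0.08), the 1 being Atg7, and of 27 citrate cycle genes 4 and 0 (-0.06, and -0.11 with the GC trend removed). Of 55 chromatin modifiers 9 leaned lower and 3 higher, although their median was 0.03, and 6 and 3 leaned with the GC trend removed. Of the 39 proteasome genes 2 leaned higher (0.02) and of the 39 cell cycle genes 3 leaned each way (0.00), shares near or below those of all genes.

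Each library was next read for a trend of its levels with the GC content of the genes. Culture p974s852 had by far the steepest trend: genes of 36% GC stood 0.58 above their mean over the 10 libraries on the log2 scale, and genes of 64% GC 0.52 below (-0.52). Among the other 9 libraries the trend at 36% GC lay between -0.18 and 0.16 and at 64% GC between -0.16 and 0.22. The slope per 10 percentage points of GC was -0.42 in culture p974s852, and -0.47 and -0.45 in the same culture's libraries named ctrl and 24h. By genotype it was -0.06 ± 0.22 in the libraries labelled Cacnb3-/- against 0.06 ± 0.08 in WT (exact permutation p = 0.302, n = 5 each). GC content explained 19.8% of the deviations in culture p974s852 and at most 4.99% in the other 9. Without culture p974s852, 881 genes leaned higher and 933 lower in the fit as counted.

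The trend tilted the genotype contrast. With the genes split into 10 equal groups by GC content, the median log2 fold change went from 0.15 in the group of lowest GC content (22.1% to 41.6%) to -0.10 in that of the highest (57.1% to 78.6%). In the lowest group 13.9% of genes leaned higher and 2.60% lower, whereas in the highest group 4.33% leaned higher and 13.6% lower. The leaning genes had a median GC content of 46.5% when higher and 52.5% when lower, beside 49.4% over all genes. With each library's trend removed by an offset, the medians of all 10 groups lay between 0.00 and 0.02 and the lowest group held 8.83% higher and 7.57% lower. The trend was fitted to these same genes, so such flat medians follow from the removal itself.

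**Figure D4:**
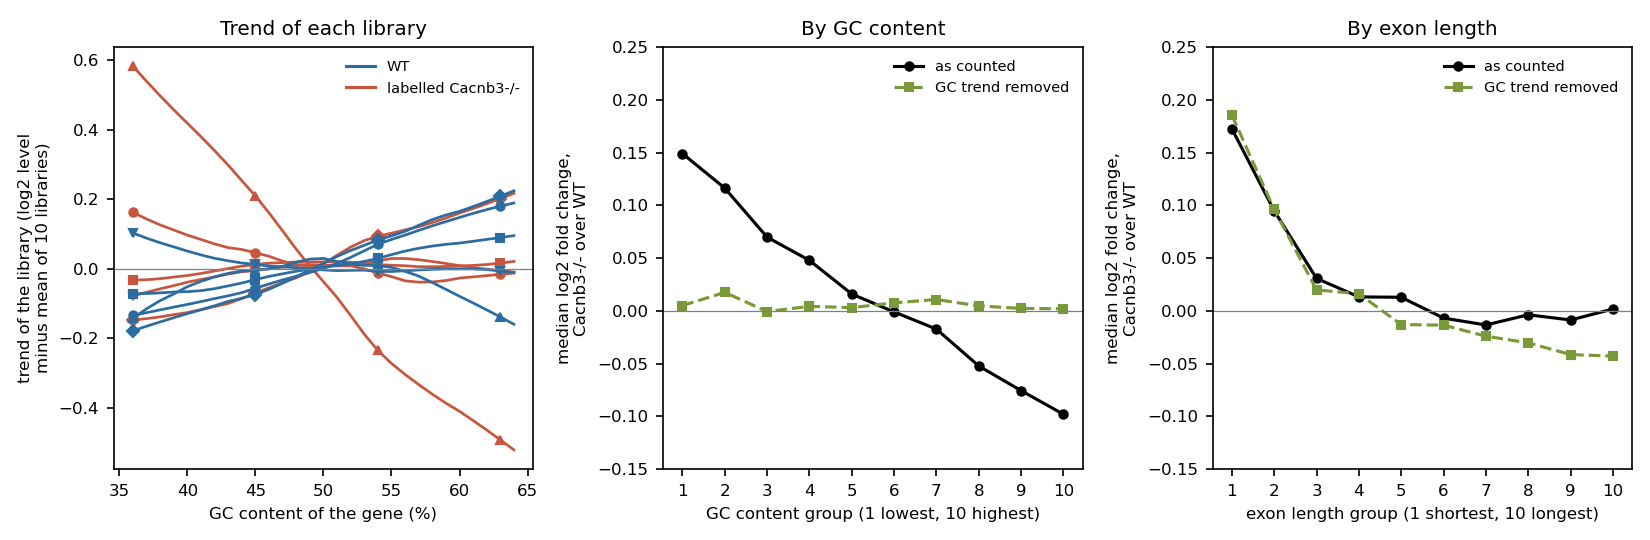
Left, the loess trend of each library's log2 level against the GC content of the gene in percent, 1 line per library (blue WT, red labelled Cacnb3-/-), with culture p974s852 running from 0.58 to -0.52. Middle and right, the median log2 fold change in 10 equal groups of the genes by GC content and by exon length, as counted (black) and with the GC trend removed (green). The GC tilt from 0.15 to -0.10 disappears, which follows from removing that trend, and the excess in the shortest genes (0.17) stays at 0.19.

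Removing the trend left the number of genes in each direction almost as it was. Of 12682 genes with a GC content, edgeR called 0 (smallest Benjamini-Hochberg adjusted p 0.238), with 1053 leaning higher (8.3%) and 1077 lower (8.49%), and DESeq2 called 81 of 11940 (0.678%). The values of the genotypes then did not overlap for 137 genes in the higher direction (1.08%) and 140 in the lower (1.1%). Of 2075 genes that leaned before and 2130 that leaned after, 1745 leaned in both in the same direction, 84.1% and 81.9% of the lists, and 0 leaned in opposite directions. The 191 genes that leaned higher only before removal had a median GC content of 43.1%, and the 139 that leaned lower only before removal 56.2%. The median shift in a gene's log2 fold change was 0.06 and the largest 0.46, and the median standard error fell from 0.187 to 0.175.

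Among leading genes the offset acted by base composition. Stretches of 90 coding bases from GENCODE transcripts are shown for 3 genes of different composition, with G and C in capitals. Each was picked as the stretch whose GC content is nearest that of its gene, so it illustrates that content, holding 36.7% (Dzip3), 40% (Akirin2) and 58.9% (Sbno2) of G and C.
Dzip3: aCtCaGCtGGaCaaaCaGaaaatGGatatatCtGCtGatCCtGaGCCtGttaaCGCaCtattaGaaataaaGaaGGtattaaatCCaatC
Akirin2: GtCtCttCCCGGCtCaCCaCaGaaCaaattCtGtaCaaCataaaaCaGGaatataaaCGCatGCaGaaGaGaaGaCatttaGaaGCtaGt
Sbno2: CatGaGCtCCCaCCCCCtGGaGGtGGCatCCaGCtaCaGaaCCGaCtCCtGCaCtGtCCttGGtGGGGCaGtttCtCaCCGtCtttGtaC

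Dzip3, a ubiquitin ligase whose gene holds 36.5% GC, stood at 8.87, 9.18, 12.6, 10.4 and 10.9 CPM in WT and at 5.55, 7.56, 10.2, 5.92 and 7.23 CPM in the libraries labelled Cacnb3-/-. Culture p974s852, the library with the steep trend, was the only one of its genotype inside the WT range. The log2 fold change went from -0.51 to -0.70 once the trend was removed, and the genotypes then no longer overlapped. Akirin2, a nuclear cofactor of inflammatory gene expression with 39.9% GC, stood at 43.4, 48.2, 41.1, 41.0 and 56.1 CPM against 76.3, 61.3, 81.3, 64.2 and 56.6 CPM, and its log2 fold change went from 0.56 to 0.43. Sbno2, a transcriptional coregulator with 58.8% GC, stood at 297, 244, 296, 319 and 188 CPM against 123, 169.6, 115, 204 and 172 CPM and went from -0.78 to -0.68, with an overlap as counted and none once the trend was removed. Akirin2 and Sbno2, which differed in the direction of the tilt, lost part of their fold change, and Dzip3, which differed against it, gained.

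The fit without the trend also brought Gstp1 (0.36 to 0.44), a glutathione transferase, Pebp1 (0.29 to 0.37), an inhibitor of Raf kinase, and the processed pseudogene Gm9843 (0.86 to 0.96) among the leaders in the higher direction, and Cd1d1 (-0.75 to -0.77), which presents lipids, and Slc22a15 (-0.56 to -0.59), a transporter, among those in the lower direction. Gstp1 and Pebp1 overlapped between genotypes as counted and did not once the trend was removed. In turn F13a1, Clec10a, Ss18l2, Pf4, Dscaml1, Tmco4, Traf3 and Uba7 were no longer among the 10 of lowest p in their direction. Pf4 went from 1.46 to 1.38, and its values then overlapped between genotypes. Nlrc5 went from -1.04 to -0.995, Clec10a stayed at 1.71, and Cacnb3, a gene of 62.0% GC, went from -0.34 to -0.21.

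The lists with the largest medians kept them. Over all genes 8.36% leaned higher and 8.06% lower before removal, and 8.3% and 8.49% after. The interferon-stimulated median was -1.32 after removal with 26 of 31 leaning lower, the ribosomal median 0.33 with 33 of 79 leaning higher, the respiratory chain median 0.21 with 32 of 82, and the mitochondrially encoded median 1.22 with 7 of 7. By contrast, the median of 54 spliceosome and splicing factors, whose genes have a median GC content of 44.6%, went from 0.26 to 0.14, although 12 leaned higher and 3 lower before and 11 and 3 after. Snrpe (0.74), Snrpb2 (0.53) and Snrpa1 (0.59), all proteins of small nuclear ribonucleoproteins, led it. The median of ATP and adenosine receptors went from -0.02 to -0.15, with 0 of 13 leaning in either fit. The median of 312 Zfp zinc finger genes, at 44.0% GC, went from 0.02 to -0.05, with 13 leaning higher in both fits and 26 and then 27 lower. These shares were near or below those of all genes.

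A trend with gene length remained. With the genes split into 10 equal groups by exon length, the shortest group ran from 57 to 1322 bases. There the median log2 fold change was 0.17 and 18.6% of genes leaned higher and 4.29% lower, whereas in the longest group 5.07% leaned higher and 8.35% lower. With the GC trend removed the shortest group still held a median of 0.19 with 21.5% higher and 4.08% lower. The tested ribosomal protein and respiratory chain genes had median exon lengths of 1498 and 1328 bases, beside 3664 bases over all genes tested. With trends in both GC content and length removed, 919 of 12682 genes leaned higher and 1069 lower. Of the 79 ribosomal genes, 24 then leaned higher and 1 lower (median 0.21). Of the 82 respiratory chain genes, 18 leaned higher and 2 lower (median 0.07), and of the 75 mitochondrial ribosome genes 10 and 2 (median 0.08). The interferon-stimulated list had a median of -1.34 in this fit, with 26 of 31 leaning lower.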

How the data were processed

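Poly(A) RNA libraries had been prepared from BMDCs with a TruSeq kit. Per the labels reads were aligned to mm10 with STAR 2.4, and per the file header the authors counted reads per gene with featureCounts 1.5.1 and Ensembl 79 annotation; the deposited values are raw counts for 43629 genes in 30 libraries. Symbols were found for 38984 gene IDs (89.4%) and GC content for 39033 in a GENCODE annotation of a later build, from which no coordinates were taken. Genes passing filterByExpr were tested with edgeR 4.0.16 (quasi-likelihood, TMM) in R 4.3.3, calls needing a Benjamini-Hochberg adjusted p under 0.05 and 2-fold. For the second fit each library's loess trend (span 0.3) of log2 CPM against GC content was added as an offset. CPM were TMM-scaled. DESeq2 1.42.0 and limma 3.58.1 were alternatives, and library measures were compared by two-sided exact permutation tests (scipy 1.17.1), whose smallest p is 0.00794. The edgeR and DESeq2 fits were tested on simulated data. The depth, 13807704 to 32164225 counts per library, limits genes of few counts.

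The 60 gene lists and the comparison were chosen with earlier results of these data known. Named genes were the 10 higher and 10 lower genes of lowest p in each fit with a mean of at least 5 CPM, and up to 4 of lowest p plus the most abundant member of a list, with Cacnb3 and Nnt; a few genes that the rule names are not reported here. Cell type checks, and Irf7 and Oas3, fall outside this rule and were named after their values were seen. Lane numbers came from the column names of the table. The counting command in the file header sets no strand option, so reads of genes overlapping on opposite strands cannot be told apart.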

Additional observations from a re-analysis of the deposited data

Results flagged for a closer look

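Groups of 5 values were examined for library measures, named genes and levels of gene lists in each genotype. Among 128 such groups, 8 held 1 library whose gap to the nearest of the other 4 was a large part of the group's whole range. No list level was among the 8. Chance flags about 1 in 20 such groups. WT culture p974s855 had 32164225 total counts, the other WT libraries 17037603 to 20666606. In culture p974s843, labelled Cacnb3-/-, the 10 highest genes took 14.7% of counts, beside 10.9% to 11.8% in the other 4. Culture p974s843 was also high for Ss18l2 at 13.3 CPM (others 8.16 to 9.32), for the chemokine Pf4 at 222 CPM (68.5 to 111) and for the lysosomal protease Ctsl at 484 CPM (295 to 336). WT p974s855 was high for Tmco4 at 42.8 CPM (31.4 to 33.3) and for Il12b at 1108 CPM (275 to 466), and low for the pseudogene Gm9843 at 10.6 CPM (14.1 to 14.9). With each of these 2 libraries left out in turn, fewer genes leaned in both directions.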

How the results depend on the processing

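No paired analysis was possible because the genotypes share no culture numbers. edgeR's count of 0 calls held with each library left out and under every other edgeR and limma setting tried, whereas DESeq2 called 83 genes, 68 when run on the genes edgeR tested (an alternative chosen after seeing the data) and 81 with the GC trend removed. With each library left out, the genes leaning higher ranged from 548 to 1467 and lower from 587 to 1533, and with the GC trend removed from 553 to 1578 and from 581 to 1570. The lowest counts came without culture p974s843 (548 and 638, with the trend removed 553 and 666), WT p974s855 (635 and 587, 628 and 581) and WT p974s856 (632 and 641, 656 and 697). The cause was not tested. Nnt, near 0 throughout, changed sign: its log2 fold change was -0.0183 with the GC trend removed and -0.0450 to 0.150 with each library left out, for the fit Nnt, GC trend removed, it ran from -0.0814 to 0.0818, and in the exact permutation test -0.0320 to 0.148. The exact permutation test of Cacnb3 gave -0.48 to -0.27, with an adjusted p of 0.0317 without culture p974s853. Of the list medians, 22 moved by more than the spread between libraries and 2219 did not. DESeq2 moved 23 named-gene results past the threshold. Scaling shifted the median over all genes between 0.02 and 0.04.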
